A study of Homo sapiens with 18 samples.

Results

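Protein kinase A (PKA) is the main kinase that answers to cyclic AMP, the second messenger made when Gαs activates adenylyl cyclase. The inactive enzyme pairs catalytic subunits with regulatory subunits, which release the catalytic subunits once they have bound cyclic AMP. Free catalytic subunits can still be held back by the protein kinase inhibitors, small proteins that block the active site and carry the kinase out of the nucleus. The genes described here were chosen by name, 10 of the 34255 genes of the count table: the catalytic subunit genes PRKACA and PRKACB, the related kinase gene PRKX, the regulatory subunit genes PRKAR1A, PRKAR1B, PRKAR2A and PRKAR2B, and the inhibitor genes PKIA, PKIB and PKIG. PRKACA and PRKAR2B are not analysed here, since 1 of 10 annotated PRKACA transcripts and 0 of 3 annotated PRKAR2B transcripts were in the table used. The other 8 genes were measured in every group, and all 8 were among the 15519 genes that passed the filter on low counts.

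The libraries came from HEK293 cells, a line derived from human embryonic kidney, in 3 genotypes: wildtype, β-arrestin1/2 KO, in which the genes of both β-arrestins were edited with CRISPR-Cas9, and Gαs KO, edited in the same way in the gene of the Gs α subunit. All cells, controls included, were transfected with the β2-adrenergic receptor (β2AR), serum starved overnight, and 48 h after transfection given vehicle or 1 μM of the agonist isoproterenol for 1 h. Each of the 6 groups had 3 biological replicates, so 18 libraries were compared, and whether these were separate cultures or wells is not stated. Each genotype is described as 1 line, so that what the edited gene does and what differs between lines for other reasons cannot be told apart.

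The libraries held 17908597 to 25019834 estimated fragments. The vehicle-treated wildtype replicate 1 stood apart: the mean GC content of its counted transcripts was 52.49%, against 49.15 to 50.1% in the other 17 libraries, and results that rest on it are given with and without it. GNAS, which encodes Gαs, had 1173 to 1365 normalized counts in the Gαs KO libraries and 20419 or more in wildtype libraries. ARRB2 was 4.76-fold lower in vehicle-treated β-arrestin1/2 KO cells, whereas ARRB1 RNA was not called lower (log2 difference -0.27 ± 0.14 SE, edgeR adjusted p = 0.14), so that ARRB1 RNA does not check the label. The HEK293 markers LIN28B, PAX2, NEFM, VIM, KRT8 and KRT18 were counted in every library, PTPRC, PECAM1 and ALB had at most 12.6 normalized counts, and COL1A1, a fibroblast marker, had 352 to 914, lowest in Gαs KO cells, and its part in the results was not tested.

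Per unit of transcript length, the regulatory subunit gene PRKAR1A was the most abundant of the 8 genes. Its level, in counts per kilobase of transcript on the scale of TPM, had a median of 255 over the 18 libraries and ranged from 195 to 283. This range did not overlap with that of any other member. The levels of PRKAR2A (median 37.7), PRKAR1B (29.5) and the inhibitor PKIG (27.0) followed, with ranges that overlapped one another. PRKACB, the catalytic subunit β gene, had a median level of 19.7, and its range of 13.3 to 24.1 reached into those of PRKAR1B and PKIG. The range of PKIA (median 15.4, 6.61 to 22.4) overlapped with that of PRKACB, and the range of PKIB (median 8.46, 2.83 to 13.4) with that of PKIA. PRKX, the X-linked relative of the catalytic subunits, was far below the rest, at 0.353 to 1.19, and its reads may be shared with near-identical copies elsewhere in the genome.

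**Figure D1:**
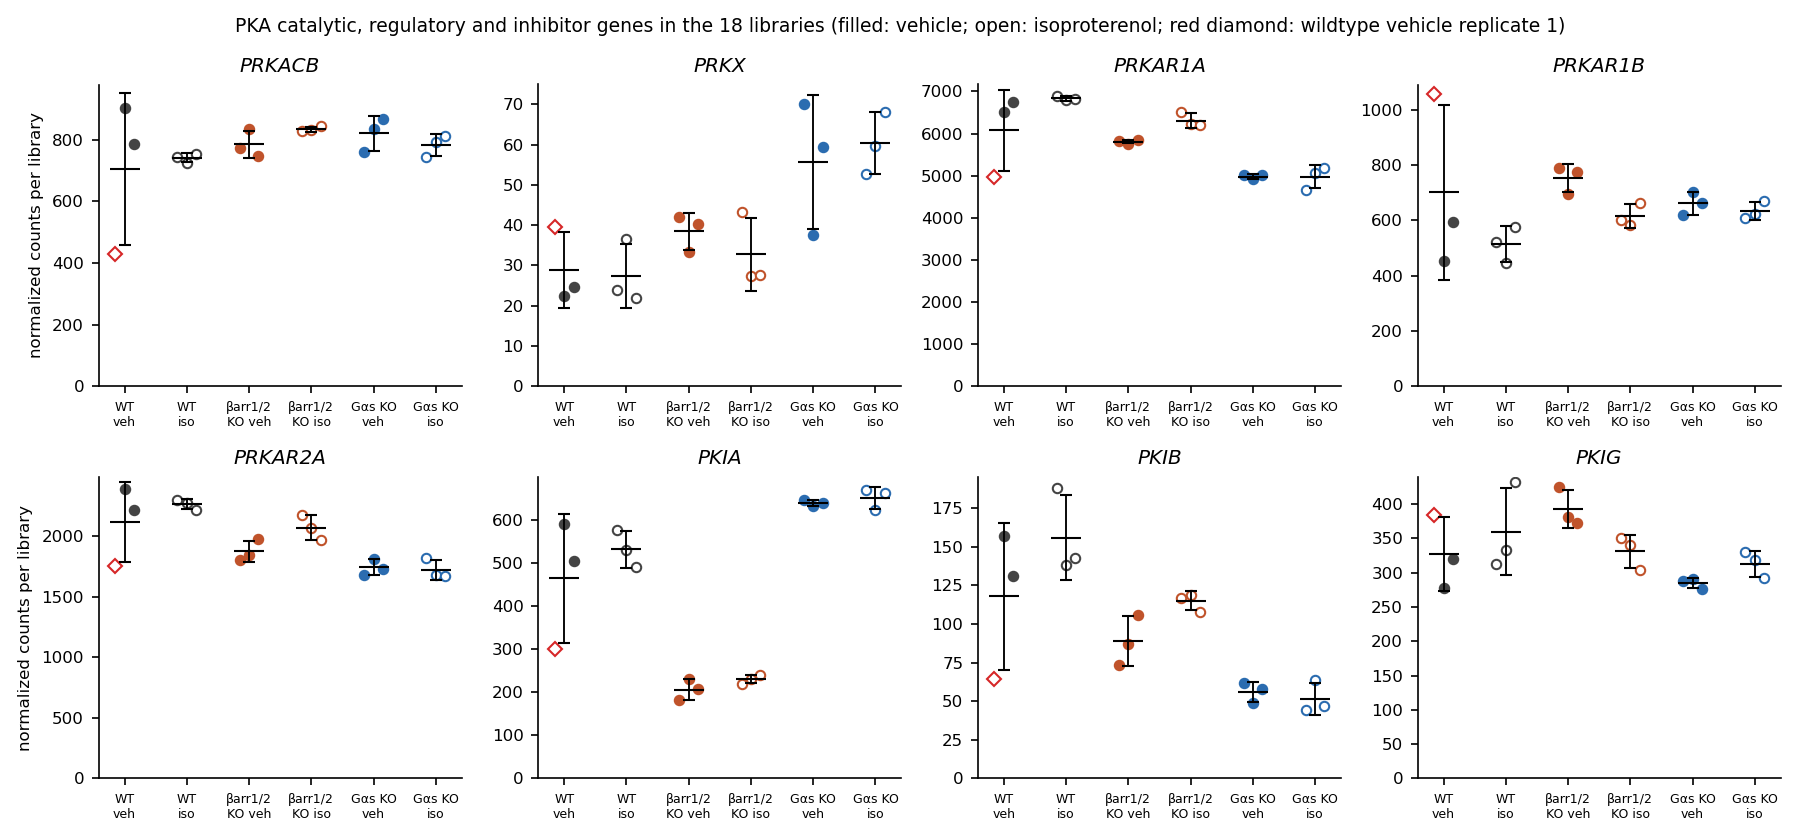
Normalized counts (y axis, from 0) of the 8 measured genes in the 18 libraries by group (x axis; veh, vehicle; iso, isoproterenol); horizontal bars are means and whiskers SD (n = 3), filled points are vehicle and open points isoproterenol, and the red diamond is wildtype vehicle replicate 1. PKIA was between 182 and 239 in all β-arrestin1/2 KO libraries, and PKIB between 44.0 and 63.6 in all Gαs KO libraries, below every wildtype library in both cases.

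PRKAR1A encodes the type Iα regulatory subunit and lies at chr17:68511780-68551319 on the plus strand (GRCh38). Several of its annotated first exons start just downstream of a palindromic cyclic AMP response element (CRE), the site bound by CREB family factors that PKA phosphorylates. The stretch is printed because PRKAR1A-204, the PRKAR1A transcript that edgeR called in Gαs KO cells, starts 61 bases past this element. PRKAR1A-206 and PRKAR1A-217, which were not called there with all libraries, start nearer to it, at 41 and 38 bases. The first exon of PRKAR1A-203 (chr17:68512379-68512579) holds the element, and 30 bases of the stretch lie in annotated PRKAR1A exons. The second stretch, with no whole element, lies before the first annotated base of PRKAR2A, the type IIα regulatory subunit gene (chr3:48744597-48847846, minus strand), which is described next to PRKAR1A. All 278 bases of the second stretch lie in annotated exons of the antisense gene PRKAR2A-AS1. Capitals mark the CRE (TGACGTCA) and its half-site (TGACG, or CGTCA when read from the other strand). Both sequences are from RefSeq (GRCh38.p14), read 5′ to 3′ on the strand of the gene, at chr17:68512209-68512408 and chr3:48847847-48848124.
PRKAR1A: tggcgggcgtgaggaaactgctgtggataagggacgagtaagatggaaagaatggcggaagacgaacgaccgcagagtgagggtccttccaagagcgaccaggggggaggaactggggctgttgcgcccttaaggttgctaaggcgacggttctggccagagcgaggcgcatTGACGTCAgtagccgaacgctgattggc
PRKAR2A: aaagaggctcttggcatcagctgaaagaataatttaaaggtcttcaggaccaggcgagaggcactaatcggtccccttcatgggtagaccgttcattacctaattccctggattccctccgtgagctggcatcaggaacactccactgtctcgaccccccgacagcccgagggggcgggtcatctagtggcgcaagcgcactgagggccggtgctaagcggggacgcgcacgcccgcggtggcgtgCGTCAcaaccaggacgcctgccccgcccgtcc

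The promoter table, with windows of 300 bases around RNA starts, held 22 windows for 6 of the genes (PRKACB, PRKAR1A, PRKAR1B, PRKAR2A, PKIB and PKIG). The CRE was in 2 of these windows, both of PRKAR1A, which share a single element at chr17:68512381-68512388. It was in 642 of all 34943 windows (1.84%). The half-site, on either strand and within whole elements too, was in 24.5% of all windows, and was in 2 of 3 PKIB windows, 4 of 5 PRKAR1A windows, the 1 PRKAR2A window, 2 of 6 PRKAR1B windows, 1 of 5 PRKACB windows and 0 of 2 PKIG windows. These matches are letters in a window and were not tested as binding sites.

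To ask whether 1 h of agonist changed the RNA of the kinase that it activates, isoproterenol was compared with vehicle within each line. None of the 8 genes was called in any line by edgeR's quasi-likelihood test at a Benjamini-Hochberg adjusted p under 0.05. Of all 15519 genes tested, 0.464% were called for wildtype, 1.13% for β-arrestin1/2 KO and 0% for Gαs KO, so calls were few over the whole table. For wildtype 1 of the 8 had an unadjusted p under 0.05, in the other lines 0, and DESeq2's Wald test called 0 of 8 in each line, against 1.21%, 1.88% and 0.058% of all genes. Over all genes in Gαs KO cells, 163 had an unadjusted p under 0.05 and DESeq2 called 9.

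Among the catalytic subunit genes, PRKACB had 430, 903 and 788 normalized counts in the wildtype vehicle libraries and 745, 726 and 755 after isoproterenol. Replicate 1 lay below the isoproterenol values and replicates 2 and 3 lay above them, with a log2 difference of 0.07 ± 0.17 (SE, adjusted p = 0.86). PRKX changed by -0.07 ± 0.32 in wildtype cells. The regulatory subunit genes PRKAR1A (log2 difference 0.17 ± 0.09) and PRKAR2A (0.10 ± 0.09) were not called in wildtype cells.

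PRKAR1B, the type Iβ regulatory subunit gene, was the member with the smallest p for the wildtype response. It had 1059, 453 and 594 normalized counts with vehicle and 521, 447 and 575 with isoproterenol. Replicate 1 stood far above the treated libraries, and replicates 2 and 3 lay near them. The log2 difference of -0.45 ± 0.21 (adjusted p = 0.47) became -0.03 ± 0.12 without that replicate.

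The inhibitor genes were not called for a response to agonist in any line. For wildtype the log2 differences were 0.20 ± 0.17 for PKIA, 0.41 ± 0.26 for PKIB and 0.14 ± 0.13 for PKIG. For β-arrestin1/2 KO they were 0.15 ± 0.18, 0.37 ± 0.26 and -0.25 ± 0.13, in the same order. In Gαs KO cells all 8 genes were between -0.12 and 0.14, with standard errors up to 0.29. The difference of the response from wildtype was called for 0 of 8 genes in either KO line, against 0.168% of all genes for β-arrestin1/2 KO and 0.161% for Gαs KO (lowest adjusted p = 0.92 for β-arrestin1/2 KO and 0.89 for Gαs KO; unadjusted p under 0.05 for 0 in both; DESeq2 called 0 in both, against 0.671% and 0.438%). Without wildtype vehicle replicate 1, the lowest adjusted p for a response was 0.055, for PRKAR1A in β-arrestin1/2 KO cells (log2 difference 0.12 ± 0.04).

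**Figure D2:**
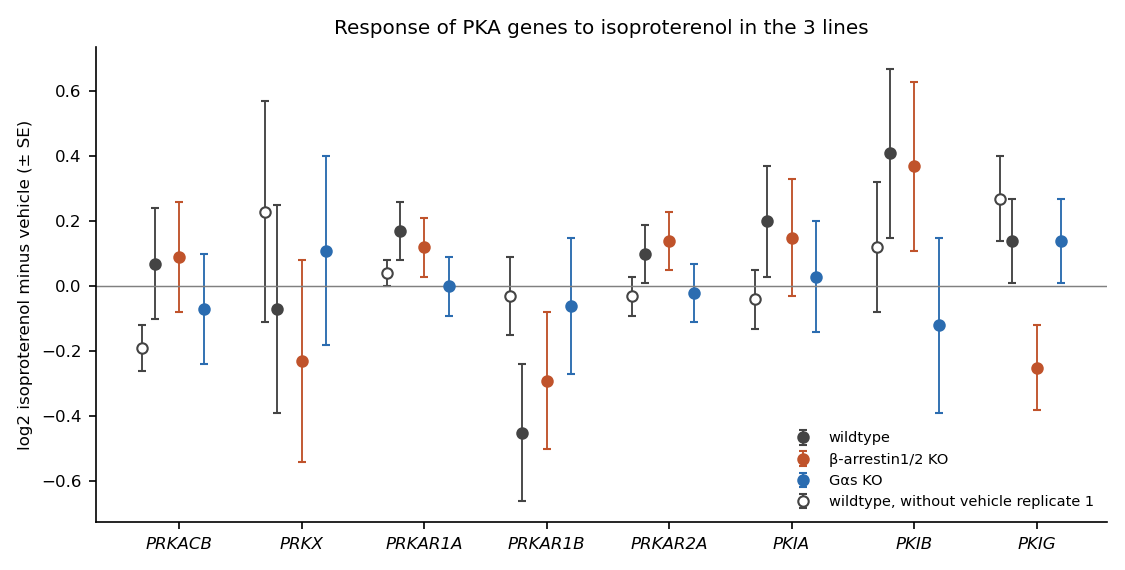
Log2 difference of isoproterenol minus vehicle (y axis, ± SE) for the 8 genes (x axis) in each line; colours are lines, and open points are wildtype cells without vehicle replicate 1. With all libraries the fitted values were between -0.45 and 0.41, and none was called; the lowest wildtype value, of PRKAR1B, moved to -0.03 without that replicate.

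To ask whether loss of the β-arrestins left the PKA genes at the wildtype level, β-arrestin1/2 KO cells were compared with wildtype cells under vehicle and under isoproterenol. Of the 8 genes 1 was called under vehicle and the same 1 under isoproterenol, PKIA, against 33.6% and 30% of all genes tested. PKIA encodes the inhibitor form that is abundant in muscle and brain. It had 299, 589 and 504 normalized counts in wildtype vehicle libraries and 182, 230 and 207 in β-arrestin1/2 KO vehicle libraries. Under isoproterenol it had 576, 529 and 490 in wildtype libraries and 220, 230 and 239 in β-arrestin1/2 KO libraries. The 6 β-arrestin1/2 KO libraries lay below all 6 wildtype libraries, replicate 1 being the nearest of these.

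PKIA was 2.24-fold lower under vehicle (log2 difference -1.17 ± 0.17 SE, edgeR adjusted p = 8.5e-05) and 2.32-fold lower under isoproterenol (-1.21 ± 0.17, adjusted p = 6.6e-05). It was called in all 18 fits that left out 1 library, with an adjusted p of at most 0.037 over all alternatives under vehicle. The comparisons under the 2 treatments use different libraries. Without wildtype vehicle replicate 1 the vehicle difference was -1.40 ± 0.10. Its main transcript by counts, PKIA-202, was also called (log2 difference -1.42 ± 0.30, adjusted p = 0.013, against 4.72% of 60987 transcripts; -1.25 ± 0.30, adjusted p = 0.029, against 3.89% under isoproterenol), though under vehicle not when wildtype vehicle replicate 2, or β-arrestin1/2 KO vehicle replicate 1 or 3, was left out (adjusted p up to 0.076). The other PKIA transcript with a main share, PKIA-201, had a log2 difference of -0.42 ± 0.35 (adjusted p = 0.62).

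The remaining members in β-arrestin1/2 KO cells depended on the wildtype replicate that stood apart. With it, the vehicle log2 differences of the 7 other genes ran from -0.40 for PKIB to 0.41 for PRKX, and none was called. Without it, 6 of the 8 genes were called against 46.7% of all genes. PRKAR1A was then lower by a log2 difference of -0.19 ± 0.04 (adjusted p = 0.0016) and PRKAR2A by -0.29 ± 0.06 (adjusted p = 0.00033). PKIB was lower (-0.69 ± 0.20, adjusted p = 0.0095), while PRKAR1B (0.53 ± 0.12, adjusted p = 0.0012) and PKIG (0.40 ± 0.13, adjusted p = 0.014) were higher. PRKACB had a log2 difference of -0.10 ± 0.07 under vehicle (adjusted p = 0.29) and 0.17 ± 0.07 under isoproterenol (adjusted p = 0.038). Under isoproterenol, where the wildtype libraries did not include the replicate, 5 genes were called in the fit without it, against 49.6% of all genes, and PKIG (-0.11 ± 0.11, adjusted p = 0.42) and PKIB (-0.44 ± 0.18, adjusted p = 0.053) were not among them.

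In wildtype vehicle replicate 1, members with low GC content were low and members with high GC content were high. Relative to the mean of the other 2 wildtype vehicle libraries, PRKACB (37.7% GC) was at a log2 ratio of -0.97 and PKIA (38.8%) at -0.87. PKIG (56.6%) was at 0.37 and PRKAR1B (63.2%) at 1.02. PRKX, at 47.4% GC, was at 0.75 and PKIB, at 42.6%, at -1.16. Across the 8 genes Pearson's r was 0.847, given as a description, since all values share that library. With offsets for GC content and length in the fit, which use every library, 4 of 8 genes were called under vehicle in β-arrestin1/2 KO cells, against 48.4% of all genes.

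**Figure D3:**
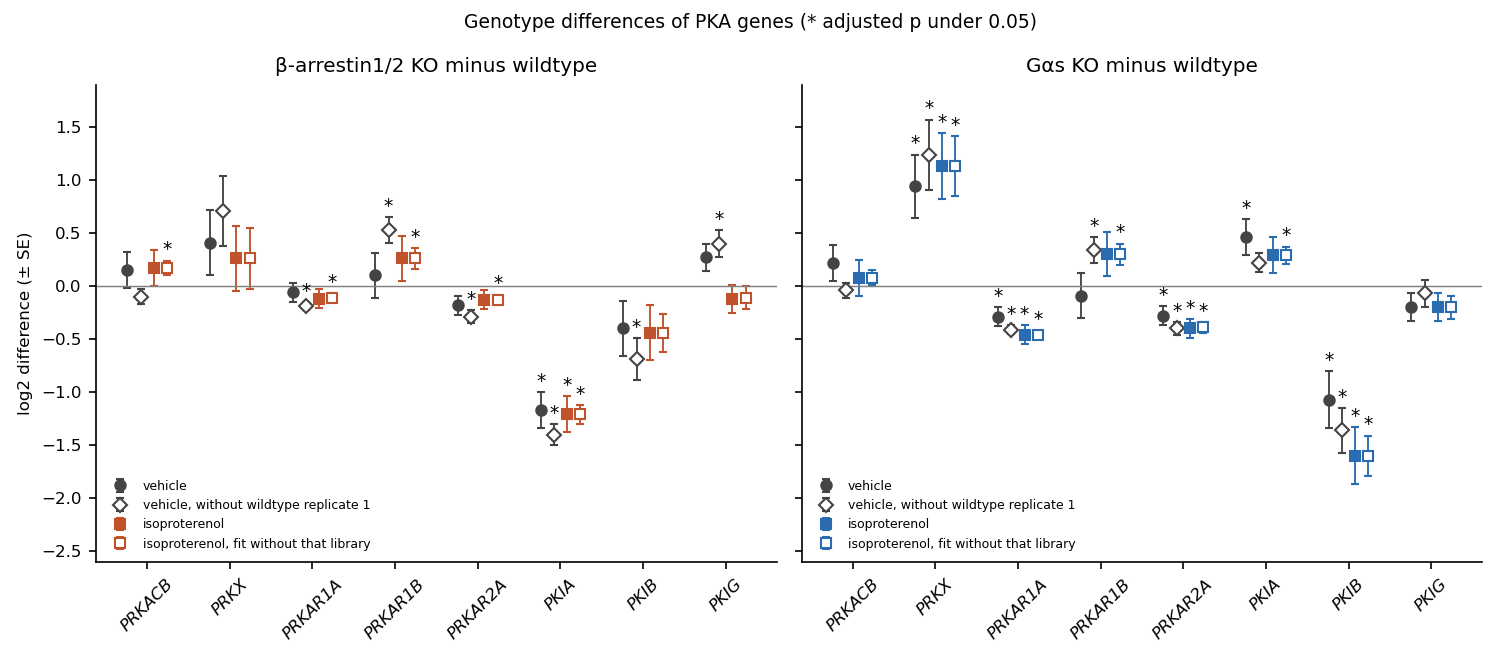
Log2 difference from wildtype (y axis, ± SE) of the 8 genes (x axis) in β-arrestin1/2 KO cells (left) and Gαs KO cells (right); circles and diamonds are vehicle and squares isoproterenol, filled points use all 18 libraries, open points leave out wildtype vehicle replicate 1, and asterisks mark an adjusted p under 0.05. PKIA was below 0 at every point on the left, and PKIB, PRKAR1A and PRKAR2A were below 0 and PRKX above 0 at every point on the right.

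To ask how the PKA genes stood in cells without Gαs, the same comparison was made for Gαs KO cells. Under vehicle 5 of the 8 genes were called, 2 higher and 3 lower, against 31.3% of all genes tested. Under isoproterenol 4 were called, 1 higher and 3 lower, against 29.9%. PKIB, PRKAR1A and PRKAR2A were lower and PRKX was higher under both treatments, and PKIA was called higher under vehicle alone. When the fit held only the vehicle libraries of wildtype and Gαs KO cells, 0 of 8 were called by edgeR, against 10.8% of all genes. The log2 differences in that fit were -1.06 for PKIB, -0.28 for PRKAR1A and PRKAR2A, 0.46 for PKIA and 0.95 for PRKX. When wildtype vehicle replicate 1 was left out, 5 were called under vehicle, against 45.9%, and 6 under isoproterenol, against 49.4%.

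PKIB, an inhibitor gene at chr6:122471917-122726373 on the plus strand, showed the largest fall. It had 64.6, 157 and 131 normalized counts in wildtype vehicle libraries and 61.6, 48.7 and 57.8 in Gαs KO vehicle libraries. Under isoproterenol it had 188, 138 and 143 in wildtype libraries and 44.0, 63.6 and 46.6 in Gαs KO libraries. All 6 Gαs KO libraries were below the 6 wildtype libraries, narrowly so for replicate 1. PKIB was 2.09-fold lower under vehicle (log2 difference -1.07 ± 0.27 SE, adjusted p = 0.0060) and 3.03-fold lower under isoproterenol (-1.60 ± 0.27, adjusted p = 0.00028). It stayed called when any 1 library was left out, and stood at -1.36 ± 0.21 under vehicle without wildtype replicate 1. Under isoproterenol it was also lower in Gαs KO than in β-arrestin1/2 KO cells (β-arrestin1/2 KO minus Gαs KO 1.15 ± 0.27, adjusted p = 0.0037).

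PRKAR1A had 4961, 6513 and 6748 normalized counts in wildtype vehicle libraries and 5017, 4908 and 5009 in Gαs KO vehicle libraries. Under isoproterenol it had 6888, 6795 and 6816 in wildtype libraries and 4657, 5072 and 5183 in Gαs KO libraries. Apart from wildtype vehicle replicate 1, which lay among them, every wildtype library was above every Gαs KO library. PRKAR1A was 1.22-fold lower under vehicle (log2 difference -0.29 ± 0.09, adjusted p = 0.021) and 1.37-fold lower under isoproterenol (-0.46 ± 0.09, adjusted p = 0.00088). The vehicle call was lost without wildtype replicate 2 or 3 or without any 1 of the Gαs KO vehicle libraries (adjusted p up to 0.26), and the isoproterenol call was kept in all 18 such fits. Without wildtype vehicle replicate 1 the vehicle difference was -0.41 ± 0.04.

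PRKAR2A followed PRKAR1A closely. It had 1751, 2388 and 2219 normalized counts in wildtype vehicle libraries and 1682, 1813 and 1730 in Gαs KO vehicle libraries, and 2297, 2276 and 2218 against 1815, 1678 and 1669 under isoproterenol. Again only wildtype vehicle replicate 1 lay among the Gαs KO libraries. The log2 difference was -0.28 ± 0.09 under vehicle (adjusted p = 0.029) and -0.40 ± 0.09 under isoproterenol (adjusted p = 0.0041). The vehicle call was lost without wildtype replicate 2 or 3, or Gαs KO replicate 1 or 3 (adjusted p up to 0.28). An antisense gene, PRKAR2A-AS1, overlaps exons of PRKAR2A, and the strand setting of the counting is not stated, so reads from the pair may not be separated.

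PRKX was called higher under both treatments. It had 39.6, 22.3 and 24.6 normalized counts in wildtype vehicle libraries and 70.0, 37.5 and 59.5 in Gαs KO vehicle libraries. Under isoproterenol it had 23.9, 36.5 and 21.9 in wildtype libraries and 52.8, 59.7 and 68.2 in Gαs KO libraries, with no overlap. The log2 difference was 0.94 ± 0.30 under vehicle, where replicate 1 of wildtype and replicate 2 of Gαs KO overlapped (adjusted p = 0.027), and 1.13 ± 0.31 under isoproterenol (adjusted p = 0.010). The vehicle call was lost without wildtype replicate 2 or 3 or Gαs KO replicate 1 or 3 (adjusted p up to 0.15), and the isoproterenol call without wildtype replicate 3 (adjusted p = 0.051).

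PKIA in Gαs KO cells had 645, 632 and 639 normalized counts under vehicle and 668, 622 and 661 under isoproterenol, above all 6 wildtype libraries, of which the highest had 589. The log2 difference was 0.46 ± 0.17 under vehicle (adjusted p = 0.045) and 0.29 ± 0.17 under isoproterenol (adjusted p = 0.21). The vehicle call was lost in 16 of the 18 fits that left out 1 library, among them that without wildtype replicate 1 (0.22 ± 0.09, adjusted p = 0.062), where the isoproterenol difference was called (0.29 ± 0.08, adjusted p = 0.0082). For this gene all Gαs KO libraries were above, and all β-arrestin1/2 KO libraries below, the 6 wildtype libraries, and β-arrestin1/2 KO minus Gαs KO was -1.63 ± 0.17 under vehicle (adjusted p = 3.1e-06) and -1.50 ± 0.17 under isoproterenol (adjusted p = 6.2e-06).

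The catalytic subunit gene PRKACB was not called in Gαs KO cells (log2 difference 0.22 ± 0.17, adjusted p = 0.37, under vehicle and 0.08 ± 0.17, adjusted p = 0.78, under isoproterenol). PKIG, whose gene overlaps ADA, was at -0.20 ± 0.13 under either treatment (adjusted p = 0.27 and 0.29). PRKAR1B, whose exons overlap those of DNAAF5 on the other strand, was at -0.09 ± 0.21 under vehicle, and at 0.34 ± 0.12 (adjusted p = 0.024) without wildtype replicate 1. Between the KO lines, 2 of 8 genes were called under vehicle and 5 under isoproterenol, against 26.2% and 31.1% of all genes. Beside PKIA and PKIB, these were PKIG under vehicle (0.46 ± 0.13, adjusted p = 0.015; lost without Gαs KO replicate 3 or β-arrestin1/2 KO replicate 1, adjusted p up to 0.060) and, under isoproterenol, PRKAR1A (0.34 ± 0.09, adjusted p = 0.0071), PRKAR2A (0.27 ± 0.09, adjusted p = 0.039) and PRKX (-0.87 ± 0.30, adjusted p = 0.037). Those of PRKAR2A and PRKX were lost in 6 and 5 of the fits that left out 1 library, with adjusted p up to 0.13 for each.

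Shares of the summed level per length showed how the makeup of the regulatory and inhibitor RNA differed between lines. The ratio of regulatory to catalytic RNA could not be given, with PRKACA and PRKAR2B not analysed. Under vehicle the summed level of the 3 inhibitor genes was 48.1 ± 6.29 (SD, n = 3) for wildtype, 50.6 ± 2.07 for β-arrestin1/2 KO and 50.9 ± 1.60 for Gαs KO, with overlapping ranges. PKIA made up 29.4% ± 5.16 of it for wildtype, 15.9% ± 1.9 for β-arrestin1/2 KO and 41.5% ± 1.44 for Gαs KO, and these 3 groups did not overlap. PKIG made up 53.6% ± 10.8, 68.4% ± 5.26 and 47.6% ± 2.72, and PKIB 17% ± 5.72, 15.8% ± 3.37 and 11% ± 3.97. Without vehicle replicate 1 the wildtype sum was 51.8, of which PKIA made up 32.1%, PKIG 47.7% and PKIB 20.2%. The PKIG share for wildtype was then near that for Gαs KO. Under isoproterenol the PKIA share was 27.7% ± 4.24, 16.2% ± 2.02 and 40.7% ± 4.47 in the same order of lines.

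The summed level of the 3 measured regulatory genes was lower in Gαs KO cells, at 289 ± 3.51 under vehicle and 280 ± 16.0 under isoproterenol, than in wildtype cells, at 326 ± 4.29 and 341 ± 10.7. The groups did not overlap, with 261 to 292 in Gαs KO and 322 to 353 in wildtype libraries. By counts, PRKAR1A in wildtype vehicle replicate 1 lay among the Gαs KO libraries. In that replicate PRKAR1A-206, of 680 bases, held 44.3% of the PRKAR1A level, against 24.6 to 36.1% in the other libraries. Its sum of 325 depends on this division of reads. In β-arrestin1/2 KO cells the summed level was 340 ± 19.1 and 326 ± 11.7. PRKAR1A held 76.2 to 80.8% of it as a group mean in all 6 groups, with PRKAR1B between 7.15 and 11.5% and PRKAR2A between 11.3 and 12.7%. These shares were not tested.

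**Figure D4:**
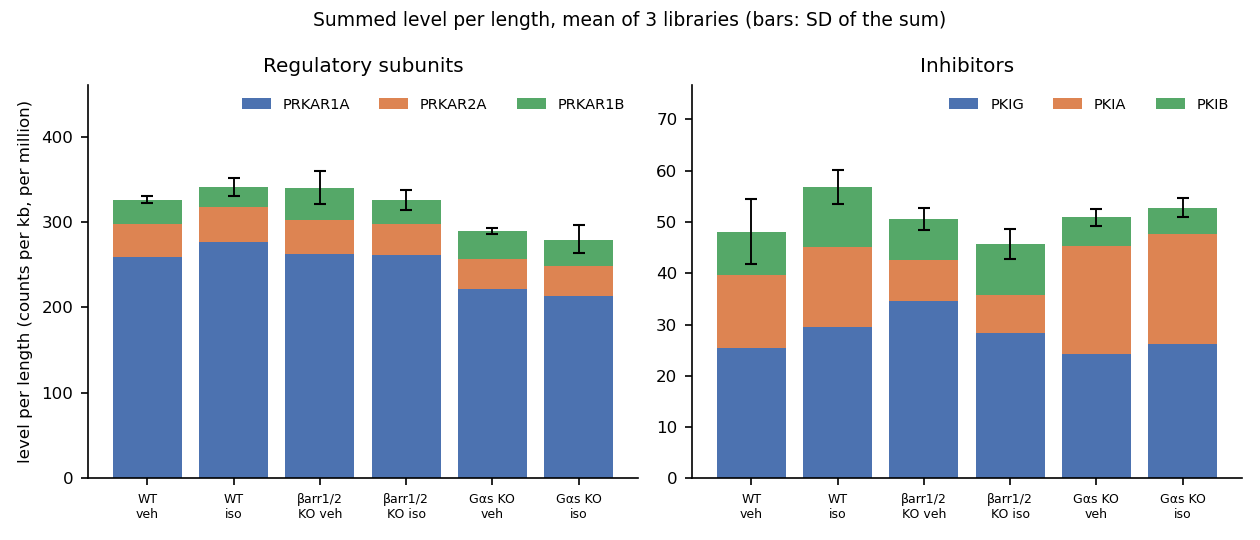
Level per length (y axis, counts per kilobase on the scale of TPM) of the measured regulatory subunit genes (left) and inhibitor genes (right) stacked by group (x axis); bars are means of 3 libraries, and whiskers are the SD of the sum. The regulatory sum was lowest in Gαs KO cells (289 and 280), while the inhibitor sums were between 45.7 and 56.8 with a different makeup in each line.

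Transcript estimates were compared between lines in the same way. Of 40 transcripts of the 8 genes tested, 1 was called in Gαs KO cells under vehicle, PRKAR1A-204, against 4.47% of all transcripts tested. Its first exon, at chr17:68512450-68512548, begins downstream of the CRE printed above, and the first exon of PRKAR1A-201, the transcript with most of the gene's counts, begins at 68512032, upstream of it. Scaled to a common library size, PRKAR1A-204 had 947, 747 and 855 counts for wildtype under vehicle, 651, 934 and 662 for β-arrestin1/2 KO, and 158, 171 and 302 for Gαs KO. Under isoproterenol it had 919, 665 and 1077 for wildtype, 611, 511 and 575 for β-arrestin1/2 KO and 269, 513 and 375 for Gαs KO. All 6 Gαs KO libraries were below all 6 wildtype libraries. PRKAR1A-206, which starts nearer to the CRE, was not called in Gαs KO cells with all libraries. Under vehicle it had 919, 502 and 538 counts for wildtype and 554, 479 and 444 for Gαs KO. Under isoproterenol it had 633, 593 and 541 for wildtype and 419, 470 and 494 for Gαs KO.

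The log2 difference of PRKAR1A-204 in Gαs KO cells was -1.99 ± 0.28 under vehicle (edgeR adjusted p = 0.00076) and stayed called in all 9 alternatives, between -2.34 and -1.81. Under isoproterenol, a comparison added after the vehicle result was seen, it was -1.24 ± 0.28 (adjusted p = 0.020). In β-arrestin1/2 KO cells it was -0.11 ± 0.27 under vehicle (adjusted p = 0.92) and -0.61 ± 0.27 under isoproterenol (adjusted p = 0.31), where all 3 libraries lay below the wildtype libraries. PRKAR1A-211 had larger log2 differences under vehicle that edgeR did not call, -4.37 ± 1.27 in β-arrestin1/2 KO cells (adjusted p = 0.069) and -3.84 ± 1.23 in Gαs KO cells (adjusted p = 0.11). DESeq2 called both (adjusted p = 0.0010 and 0.0050). Both differences rest on wildtype vehicle replicate 1, since PRKAR1A-211 had 1022, 6.09 and 47.9 counts in the wildtype vehicle libraries. Without that replicate the wildtype mean was 27.0, against 15.1 for β-arrestin1/2 KO and 22.6 for Gαs KO under vehicle. Of the 40 transcripts 0 were called for a response by edgeR, against 0.0902% of transcripts for wildtype, 0.193% for β-arrestin1/2 KO and 0.00328% for Gαs KO. The response of PRKAR1A-204 to isoproterenol in Gαs KO cells was 0.86 ± 0.28 (adjusted p = 1). PRKAR1A-201 was at 0.07 ± 0.31 under vehicle (adjusted p = 0.97), and at -0.34 ± 0.04 (adjusted p = 9.3e-05) without wildtype replicate 1, in which it had 1487 counts against 4883 and 4924 in the other wildtype vehicle libraries. Under isoproterenol PRKAR1A-201 had 4842, 5134 and 4793 counts for wildtype and 3704, 3768 and 3928 for Gαs KO, with no overlap. That difference was -0.41 ± 0.31 (adjusted p = 0.64), and -0.41 ± 0.04 (adjusted p = 6e-06) in the fit without wildtype vehicle replicate 1. In that fit the response of PRKAR1A-201 in β-arrestin1/2 KO cells was also called (0.24 ± 0.04, adjusted p = 0.0062), against 0.846% of transcripts, with 4135, 3911 and 4213 counts under vehicle and 4972, 4681 and 4702 under isoproterenol. With all 18 libraries that response was 0.24 ± 0.31 (adjusted p = 1).

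Summed over the 10 annotated transcripts whose first exon overlaps that of PRKAR1A-204, also a grouping made after these values were seen, the share of PRKAR1A counts was 17% ± 1.72 in Gαs KO cells under vehicle (range 15.6 to 18.9%). For wildtype it was 30.1% ± 10.5, with 42.1% in replicate 1 and 23.2 and 24.9% in the others, and for β-arrestin1/2 KO it was 26.5% ± 2.13. Under isoproterenol it was 20.9% ± 2.43 for Gαs KO, 25.4% ± 2.81 for wildtype and 21.8% ± 1.20 for β-arrestin1/2 KO, and these groups overlapped. The estimates divide reads among transcripts that share most exons and are less certain than the gene sums.

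**Figure D5:**
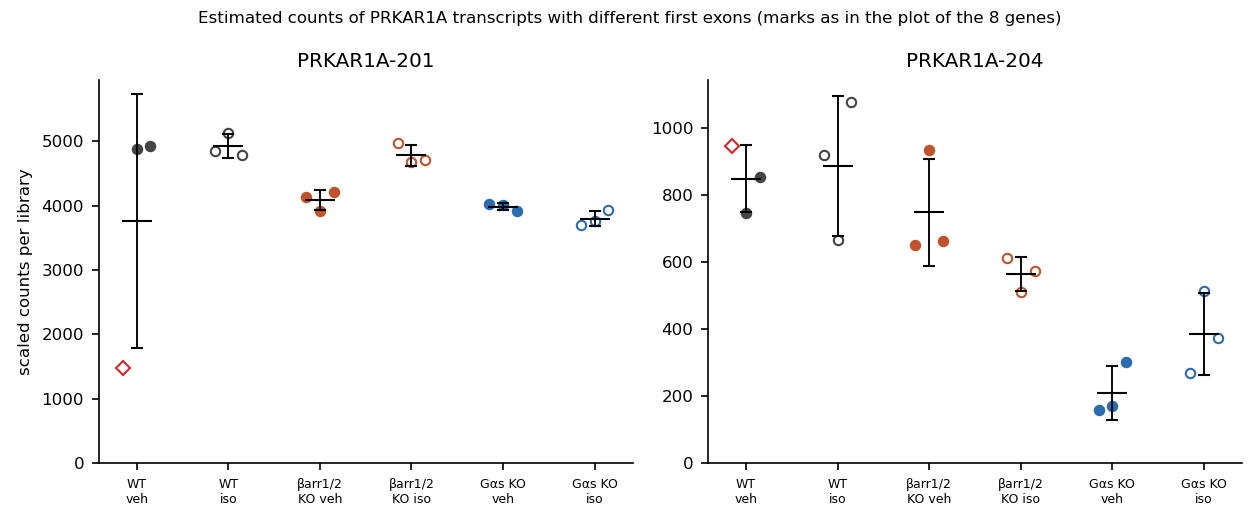
Scaled estimated counts (y axis, from 0) of PRKAR1A-201 (left) and PRKAR1A-204 (right) in the 18 libraries by group (x axis), with means and SD (n = 3) and marks as in the plot of the 8 genes. PRKAR1A-204 was between 158 and 513 in the Gαs KO libraries and 665 or more in the wildtype libraries, and PRKAR1A-201 was at 1487 in wildtype vehicle replicate 1.

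The other members differed in how many transcripts made up their level. All of the PRKX level was assigned to PRKX-201, and PRKACB-206 held a median of 82.3% of the PRKACB level over the 18 libraries and PRKAR2A-201 79.4% of the PRKAR2A level. PRKAR1B was divided between PRKAR1B-211 (52.5%) and PRKAR1B-203 (34.9%), PKIA between PKIA-202 (55.9%) and PKIA-201 (44.1%), and PKIG between PKIG-207 (66.1%) and PKIG-202 (23.9%). PKIB, the least abundant inhibitor, had 7 transcripts that reached 10% in at least 1 group, and its leading transcript PKIB-205 ranged from 15.6 to 74.1%. PKIB-205 was called lower in Gαs KO cells under isoproterenol (log2 difference -2.41 ± 0.59, adjusted p = 0.035, against 3.94% of transcripts). Under vehicle it was not called (-1.12 ± 0.57, adjusted p = 0.36), also without wildtype replicate 1 (-1.57 ± 0.48, adjusted p = 0.067).

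Genes around the kinase were taken from 6 lists: PKA anchoring proteins, cyclic AMP synthesis, cyclic AMP breakdown, nuclear targets and coactivators, subunit modification and turnover, and other cyclic nucleotide effectors. Of the 72 genes 65 were tested. In β-arrestin1/2 KO cells under vehicle 24 were called (10 higher, 14 lower), or 36.9% against 33.6% of all genes, and in Gαs KO cells 24 (6 higher, 18 lower), or 36.9% against 31.3%. Without wildtype vehicle replicate 1 these counts were 33 (12 higher, 21 lower) and 35 (15 higher, 20 lower) of 66. Calls also rose over the whole table in that fit, to 46.7% and 45.9% of all genes in the same order of lines.

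Of the phosphodiesterase genes, whose enzymes degrade cyclic AMP, 9 of 15 were lower in Gαs KO cells and 0 higher, with a median log2 difference of -0.55 against 0.007 over all genes. In β-arrestin1/2 KO cells 5 were lower and 0 higher, with a median of -0.39. Both are counts under vehicle, where 2658 (Gαs KO) and 2777 (β-arrestin1/2 KO) of all 15519 genes were called lower. PDE7B was lower in both lines (log2 difference -1.75 ± 0.57, adjusted p = 0.029, in Gαs KO cells and -1.85 ± 0.58, adjusted p = 0.022, in β-arrestin1/2 KO cells). PDE1B was lower in β-arrestin1/2 KO cells (-1.04 ± 0.22, edgeR adjusted p = 0.0018). PDE4B (-1.14 ± 0.39, adjusted p = 0.035) and PDE8B (-0.95 ± 0.18, adjusted p = 0.00068) were lower in Gαs KO cells, and PDE2A (-1.55 ± 0.35, adjusted p = 0.0026) in β-arrestin1/2 KO cells, where its isoproterenol difference was -0.18 (adjusted p = 0.74). Under isoproterenol 7 of the 15 genes were lower and 1 higher in Gαs KO cells (median -0.50). In β-arrestin1/2 KO cells 3 were then lower and 2 higher (median -0.16). Under isoproterenol 29.9% (Gαs KO) and 30% (β-arrestin1/2 KO) of all genes were called.

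Of 22 anchoring protein genes, which place PKA at its substrates, 4 were higher and 3 lower in β-arrestin1/2 KO cells, and 3 higher and 2 lower in Gαs KO cells. Over all genes 33.6% and 31.3% were called under vehicle, in the same order of lines. MAP2, which encodes a microtubule protein that binds the type II regulatory subunit, was higher in both (log2 difference 1.75 ± 0.24, adjusted p = 4.3e-05, and 3.30 ± 0.24, adjusted p = 6.1e-08). AKAP11 was higher in Gαs KO cells (0.74 ± 0.15, adjusted p = 0.0013). NBEA was higher in β-arrestin1/2 KO cells (0.65 ± 0.11, edgeR adjusted p = 0.00022). C2orf88, which encodes a small anchoring protein of type I PKA, was lower in both (-0.72 ± 0.25 in each, adjusted p = 0.034 and 0.037). Under isoproterenol it was called in β-arrestin1/2 KO cells (-0.95, adjusted p = 0.0086) and not in Gαs KO cells (-0.58, adjusted p = 0.092).

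Of 8 adenylyl cyclase and related genes, 1 was higher and 1 lower in β-arrestin1/2 KO cells, and 0 higher and 3 lower in Gαs KO cells. These counts stand against 33.6% and 31.3% of all genes called under vehicle. ADCY3 was lower in both (-0.91 ± 0.29, adjusted p = 0.023, and -0.93 ± 0.29, adjusted p = 0.021). It was not called without wildtype vehicle replicate 1 (adjusted p = 0.062 and 0.053), nor under isoproterenol (-0.34, adjusted p = 0.41, and -0.67, adjusted p = 0.093). ADCY5 was higher in β-arrestin1/2 KO cells (0.64 ± 0.15, edgeR adjusted p = 0.0044). ADCY1 (-0.65 ± 0.12, edgeR adjusted p = 0.0006) and ADCY9 (-0.26 ± 0.09, edgeR adjusted p = 0.034) were lower in Gαs KO cells. Under isoproterenol ADCY5 (0.68) and ADCY1 (-0.53, edgeR adjusted p = 0.0033 for each) were called, and ADCY9 was not (-0.08, edgeR adjusted p = 0.54). Of 8 nuclear targets and coactivators, 2 were higher and 2 lower in β-arrestin1/2 KO cells, and 1 of each in Gαs KO cells, against the same shares of all genes. CREM, which encodes activators and an inducible repressor that act at CREs, was lower in both (-1.28 ± 0.11, adjusted p = 2.9e-07, and -0.74 ± 0.11, adjusted p = 6.8e-05). CREB1 was higher in both (0.49 ± 0.14, edgeR adjusted p = 0.014, and 0.43 ± 0.14, edgeR adjusted p = 0.028). It was not called under isoproterenol (0.23, edgeR adjusted p = 0.23, and 0.2, edgeR adjusted p = 0.33). ATF1 was lower in β-arrestin1/2 KO cells (-0.44 ± 0.13, edgeR adjusted p = 0.016).

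CREM was also the 1 gene of the 6 lists called for a response, in β-arrestin1/2 KO cells (0.56 ± 0.11, adjusted p = 0.012), against 1.13% of all genes. Its response was 0.44 ± 0.11 in wildtype cells (adjusted p = 0.11) and 0.03 ± 0.11 in Gαs KO cells (adjusted p = 1), and the response differences from wildtype were not called (adjusted p = 1 and 0.89). In the fit without wildtype vehicle replicate 1, 7 of 66 list genes were called for a response in β-arrestin1/2 KO cells and 5 for its difference from wildtype, against 11.7% and 8.25% of all genes. Of 6 genes for modification and turnover of the subunits, 1 was higher and 2 lower in β-arrestin1/2 KO cells, and 1 of each in Gαs KO cells. These counts under vehicle stand against 33.6% and 31.3% of all genes. NMT1, an enzyme that myristoylates the catalytic subunit, was lower in both (-0.50 ± 0.08, adjusted p = 0.00017, and -0.38 ± 0.08, adjusted p = 0.0018), and PDPK1, which phosphorylates its activation loop, was higher in both (0.44 ± 0.07, adjusted p = 7.9e-05, and 0.33 ± 0.07, adjusted p = 0.0010). Under isoproterenol NMT1 was not called in either line (-0.19, adjusted p = 0.085, and -0.20, adjusted p = 0.069). PJA1, which encodes a ubiquitin ligase, was lower in β-arrestin1/2 KO cells under vehicle (-0.72 ± 0.10, adjusted p = 6.1e-05).

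Of 6 other effectors of cyclic nucleotides, 2 were higher and 1 lower in β-arrestin1/2 KO cells, and 1 higher and 2 lower in Gαs KO cells. Over all genes 33.6% and 31.3% were called under vehicle. PRKG2, a kinase activated by cyclic GMP, was higher in both (1.94 ± 0.22, adjusted p = 6.3e-06, and 1.99 ± 0.22, adjusted p = 4.5e-06). RAPGEF3, an exchange factor for RAP1 that binds cyclic AMP, was lower in β-arrestin1/2 KO cells (-1.49 ± 0.33, adjusted p = 0.0022; -0.83 without wildtype vehicle replicate 1). POPDC3 was lower in Gαs KO cells (-1.07 ± 0.19, adjusted p = 0.00036). BVES was higher in β-arrestin1/2 KO cells (0.44 ± 0.12, edgeR adjusted p = 0.0087) and lower in Gαs KO cells (-0.46 ± 0.12, edgeR adjusted p = 0.0071). Under isoproterenol BVES was called in Gαs KO cells (-0.75, edgeR adjusted p = 0.00016) and not in β-arrestin1/2 KO cells (0.31, edgeR adjusted p = 0.053).

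The genes whose log2 CPM followed those of PKIA most closely over the 18 libraries were RBM3 (Pearson's r = 0.985), PMPCB (0.983) and MSRB3 (0.981). For PKIB they were SDCBP (0.963), EIF1AX (0.962) and ATP6V1C1 (0.960). These are descriptions over libraries that share 3 genotypes, and without wildtype vehicle replicate 1 the values were between 0.962 and 0.988.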

How the data were processed

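The deposited values were expected counts, the number of paired-end fragments per transcript that the authors estimated with Salmon 1.7.0 on GRCh38 without normalizing them for depth or length. The index and strand setting are not given in the sources used here. Poly-A RNA was sequenced in 18 libraries, and 0 sample columns were left unused. The 161798 of 184844 transcripts that matched GENCODE release 29 by Ensembl identifier held 92.92 to 93.75% of a library's counts, whose median total was 20419459. Gene sums were rounded, scaled by TMM and filtered with filterByExpr by group, which left 15519 genes.

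All genes, and separately all transcripts, were fitted in edgeR 4.0.16 (R 4.3.3) with its quasi-likelihood method and 1 mean per group. Genes were tested for 11 comparisons: each response, its difference from wildtype, and each pair of lines under each treatment. A Benjamini-Hochberg adjusted p under 0.05 was called. The SE is the log2 difference divided by the square root of F. P-values rest on the spread between libraries within groups. Each gene had 1 estimate of this spread over all 6 groups, so wildtype vehicle replicate 1 also entered comparisons that hold no wildtype vehicle library. For β-arrestin1/2 KO against wildtype under isoproterenol, 4653 of 15519 genes were called with that replicate and 7824 of 15773 without it. Fits were run on simulated data in which 100 genes changed 1.5-fold and 100 genes 2-fold in Gαs KO vehicle cells. Of these edgeR recovered 49% and 78%. The simulated data had no other difference between groups and no library that stood apart, so they do not show how the fits do on these libraries. DESeq2 1.42.0 was an alternative. The members and lists were chosen with earlier results of these data known. The text names all members, the targeted genes, the markers, and the 3 genes most correlated with PKIA and PKIB. Of each list it names up to 3 called genes with the largest difference, per vehicle comparison with wildtype and per response.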

Additional observations from a re-analysis of the deposited data

How the results depend on the processing

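Of 792 values of the 8 genes under other tools, filters, offsets and the replicate block, 757 kept their direction and side of the threshold, 9 lost and 26 gained a call; of 1584 with 1 library left out, 1526 kept both, 43 lost and 14 gained a call, and PRKAR1B in Gαs KO against wildtype cells under vehicle reversed, to 0.34 without wildtype replicate 1 (-0.32 to 0.34 over all libraries left out). Sign changes among values not called in either fit (82) are counted as kept. Causes were not tested unless named.

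Counts of the 8 genes called moved as follows. With only the groups compared, β-arrestin1/2 KO against Gαs KO under vehicle gave 4 (7172 of 14890 over all genes). Gαs KO against wildtype under vehicle gave 0 (1587 of 14722), and β-arrestin1/2 KO against wildtype under isoproterenol 5 (7221 of 14599). With GC and length offsets, with or without the replicate block, the β-arrestin1/2 KO comparisons gave 4 (against Gαs KO, vehicle), 4 (against wildtype, vehicle) and 3 (against wildtype, isoproterenol). Without the block, 6681, 7518 and 7177 of all 15519 genes were called in these comparisons. With all genes of at least 1 count, Gαs KO against wildtype under vehicle gave 3 and β-arrestin1/2 KO against Gαs KO under isoproterenol 3. Of the 23903 genes tested there, 4315 and 4355 were called. Leaving out 1 library gave 1 to 6 and 1 to 5 for β-arrestin1/2 KO against wildtype under vehicle and isoproterenol, 1 to 5 and 3 to 6 for Gαs KO against wildtype, 1 to 4 and 3 to 5 between KO lines, and 0 for responses. Over all genes the same fits called 4103 to 7368 and 3611 to 7824 for β-arrestin1/2 KO against wildtype. For Gαs KO against wildtype they called 3700 to 7236 and 3631 to 7796. Between KO lines they called 3074 to 7144 and 3743 to 8065. Transcripts called numbered 2 and 3 under DESeq2, and 0 to 5 and 1 to 3 with 1 library left out, for β-arrestin1/2 KO and then Gαs KO. Of all 60274 transcripts DESeq2 called 6726 and 6329.

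For the lists under vehicle, given as β-arrestin1/2 KO then Gαs KO, only the groups compared left 2 and 1 anchoring genes, 1 and 1 of synthesis, 1 and 0 of breakdown, 1 and 1 nuclear, 1 and 0 of modification, and 1 other effector in β-arrestin1/2 KO cells. Over all genes these fits called 1501 of 14586 and 1587 of 14722. Offsets gave 8 of breakdown and 5 of modification in β-arrestin1/2 KO cells, 10 anchoring, 4 nuclear and 4 of modification in Gαs KO cells, and, with the block, 4 of synthesis in β-arrestin1/2 KO cells. Over all genes the offsets without the block called 7518 and 7265 of 15519. Leaving out 1 library gave 5 to 9 and 4 to 10 anchoring, 1 to 3 and 1 to 3 of synthesis, 2 to 8 and 5 to 9 of breakdown, 3 to 4 and 1 to 6 nuclear, 3 to 5 and 2 to 4 of modification, and 3 to 5 and 3 other effectors.

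With the longest transcript as the length, the PRKAR1A share of the regulatory level was 69.7% (wildtype), 69.7% (β-arrestin1/2 KO) and 68.5% (Gαs KO) under vehicle and 74.1%, 72.2% and 69.0% under isoproterenol, and the PKIA share in β-arrestin1/2 KO vehicle cells 13.8%. As shares of counts, the leading transcripts were at 75.2% (PKIA-202), 75.1% (PRKAR1A-201), 63.2% (PRKAR1B-211) and 96.5% (PRKAR2A-201). The ratio to catalytic subunits, and that ratio without PRKX, were not run. Same-numbered libraries did not deviate together (mean correlation -0.058 to 0.028), and the replicate block alone gave the same number of called genes in every comparison (1 for β-arrestin1/2 KO and 5 for Gαs KO against wildtype under vehicle). Transcript comparisons under isoproterenol, transcript responses and the PRKAR1A first-exon sums were added after seeing the data.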

Other observations

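Of the PKIG transcripts, neither of the main ones passed the test with all libraries. PKIG-207 had 346, 300 and 279 scaled counts in β-arrestin1/2 KO vehicle libraries and 302, 157 and 170 in wildtype vehicle libraries (log2 difference 0.64 ± 0.24, edgeR adjusted p = 0.18), and PKIG-202 had 44.3, 24.4 and 52.1 against 75.1, 95.0 and 122 (-1.23 ± 0.47, adjusted p = 0.18). Without wildtype vehicle replicate 1, PKIG-207 was called (0.92 ± 0.23, adjusted p = 0.027). Under isoproterenol, with all libraries, the log2 differences were 0.12 ± 0.24 for PKIG-207 (adjusted p = 0.93) and -0.10 ± 0.46 for PKIG-202 (adjusted p = 0.99).

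In the same replicate, PRKACB-213 held 53.9% of the PRKACB level, against at most 7.84% in the other 17 libraries, and PRKAR1A-201 held 13.6% of the PRKAR1A level, against 45.7 to 54.0%.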
